A study of Homo sapiens with 12 samples.

Results

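Notch signalling genes were followed in 2 human lung cancer cell lines, A549 and H1650, each untreated or over-expressing the splicing factor SRSF2. The 8 genes described are the receptors NOTCH1, NOTCH2 and NOTCH3, the ligands JAG1 and JAG2, the DNA-binding factor RBPJ and the target genes HES1 and HEY1. They are 8 of the 16599 genes in the count table, and were chosen by their role in the pathway. The choice set no threshold on any value, but it was made with earlier results of these libraries known. How many of the 8 passed a test is therefore a description and supports nothing by itself.

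Notch receptors are single-pass membrane proteins that bind Jagged or Delta-like ligands on a neighbouring cell. Binding leads to cleavage by an ADAM protease and then by gamma-secretase, and the released intracellular domain enters the nucleus. There it joins RBPJ and a Mastermind co-activator at target genes of the HES and HEY families, which encode transcriptional repressors. In the lung the pathway is known for guiding the choice between secretory, ciliated and neuroendocrine fates in the airway epithelium.

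Each of the 4 groups (A549 untreated, A549 SRSF2, H1650 untreated, H1650 SRSF2) held 3 libraries of polyadenylated RNA, with total counts from 23876899 to 32079027 per library. Both lines derive from lung adenocarcinoma. The labels call the controls untreated, the control titles carry letters that are not explained, and neither the construct nor the time of over-expression is given in the sources used here. No value of SRSF2 itself was used here, and the over-expression was therefore not checked. Nothing says that the 3 libraries of a group came from separate cultures, so p-values measure the spread between these libraries, which may be technical. The spread was widest in H1650 SRSF2, where the biological coefficient of variation was 0.0559 against 0.0298 to 0.0342 in the other groups. All 7 epithelial markers were present in both lines, with summed levels of 9277 to 10166 counts per 1000000 counts of the library (CPM) in A549 and 10740 to 11343 CPM in H1650. The markers did not all order the lines alike: means of EPCAM (5.72 against 307 CPM), CDH1, KRT19 and CLDN4 were lower in untreated A549 than in untreated H1650, and those of KRT7, KRT8 and KRT18 were higher. In H1650 SRSF2 the mean of KRT19 was 625 CPM against 1304 CPM untreated, and that of CLDN4 was 1045 against 596 CPM. The part of these differences in the Notch results was not tested. Of 7 alveolar and airway markers 3 were in the table, with summed levels of 1.09 to 6.37 CPM over all libraries, and the other 4 were not analysed here.

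Target genes are shown first by the DNA before their start sites, for HES1 and 3 further target genes, HES4, HES7 and NRARP. They were picked by their calls in H1650, where HES1 was not called and the other 3 were called higher. HEYL, also called higher there, is not shown because its whole window lies in an annotated exon. The part of these sequences in the calls was not tested. HES4 and HES7 encode repressors of the same family as HES1, and NRARP encodes an inhibitor that binds the Notch transcription complex. The sequences are from RefSeq on GRCh38.p14, 5′ to 3′ on the strand of the gene. Capitals mark TGGGAA, the core letters bound by RBPJ, which was searched on both strands (TTCCCA on the other) in the 250 bases before each start. The HES1 sequence is chr3:194135898-194136144 on the plus strand, and the HES4 sequence is chr1:1000143-1000347 on the minus strand. The HES7 sequence is chr17:8124107-8124356 on the minus strand, and the NRARP sequence is chr9:137302272-137302521 on the minus strand. The HES1 stretch ends where the first exon of GENCODE 29 begins, and the HES4 stretch ends 30 bases into it.
HES1: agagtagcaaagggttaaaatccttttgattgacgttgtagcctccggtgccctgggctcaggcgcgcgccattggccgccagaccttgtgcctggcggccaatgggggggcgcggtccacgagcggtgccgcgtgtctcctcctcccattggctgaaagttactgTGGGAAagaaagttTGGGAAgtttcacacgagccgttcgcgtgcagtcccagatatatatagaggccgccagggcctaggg
HES4: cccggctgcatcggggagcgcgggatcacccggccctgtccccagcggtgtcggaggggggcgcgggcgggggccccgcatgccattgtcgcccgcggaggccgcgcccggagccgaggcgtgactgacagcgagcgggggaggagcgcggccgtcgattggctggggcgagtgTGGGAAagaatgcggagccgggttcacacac
HES7: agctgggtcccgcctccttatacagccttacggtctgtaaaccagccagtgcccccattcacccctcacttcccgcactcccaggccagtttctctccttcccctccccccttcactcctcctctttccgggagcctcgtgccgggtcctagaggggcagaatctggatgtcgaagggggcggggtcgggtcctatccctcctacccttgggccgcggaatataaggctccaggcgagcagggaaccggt
NRARP: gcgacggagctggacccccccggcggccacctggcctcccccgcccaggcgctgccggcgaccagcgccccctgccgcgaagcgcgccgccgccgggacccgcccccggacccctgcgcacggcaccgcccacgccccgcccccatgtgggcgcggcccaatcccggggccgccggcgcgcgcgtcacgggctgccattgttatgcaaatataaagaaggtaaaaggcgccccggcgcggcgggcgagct
HES1 held 2 matches, 84 to 79 and 70 to 65 bases before its start, both on its own strand. HES4 held 1 match, 76 to 71 bases before its start, and all but the first letter of it lie in the first exon of GENCODE 29. HES7 and NRARP held 0 matches, which says only that these letters are not in this window. The target gene HEYL held 2 matches, at 99 to 94 bases before its start and, on the other strand, at 178 to 173. All 250 bases of the HEYL window lie in an exon of HEYL in GENCODE 29, and so do both matches. NOTCH1, NOTCH2, NOTCH3, JAG1 and JAG2 held 0, and RBPJ held 2 before 1 of its 5 starts, while HEY1 was not searched. Of 35116 promoters in the RefSeq table, 7321 (20.8%) held the letters at least once and 1017 (2.90%) held them 2 or more times. A match is a description of the sequence and was not read as a bound site.

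NOTCH3, a receptor best known from vascular smooth muscle that is also made in epithelial tumours, showed the largest fall of the 3 receptors in each line. It lies at chr19:15159038-15200981 (GRCh38, minus strand). NOTCH3 was at 137, 149 and 138 CPM in untreated A549 and at 69.5, 79.0 and 90.0 CPM in A549 SRSF2. In H1650 it was at 191, 189 and 199 CPM untreated and at 99.7, 114 and 113 CPM with SRSF2. Every SRSF2 library lay below every untreated library of its line, and the order of the groups, from H1650 untreated through A549 untreated and H1650 SRSF2 to A549 SRSF2, held with no overlap between neighbours. NOTCH3 fell by 0.83 ± 0.06 (log2, SE) in A549, a 1.78-fold drop (adjusted p = 3.02e-13, edgeR), and by 0.83 ± 0.06 in H1650, a 1.77-fold drop (adjusted p = 1.24e-14). The difference between the responses had a 95% interval of -0.16 to 0.17 (adjusted p = 0.974), which limits how far apart they can be without showing that they are equal. In these bulk libraries, fewer cells expressing a gene and less RNA per cell cannot be told apart.

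**Figure D1:**
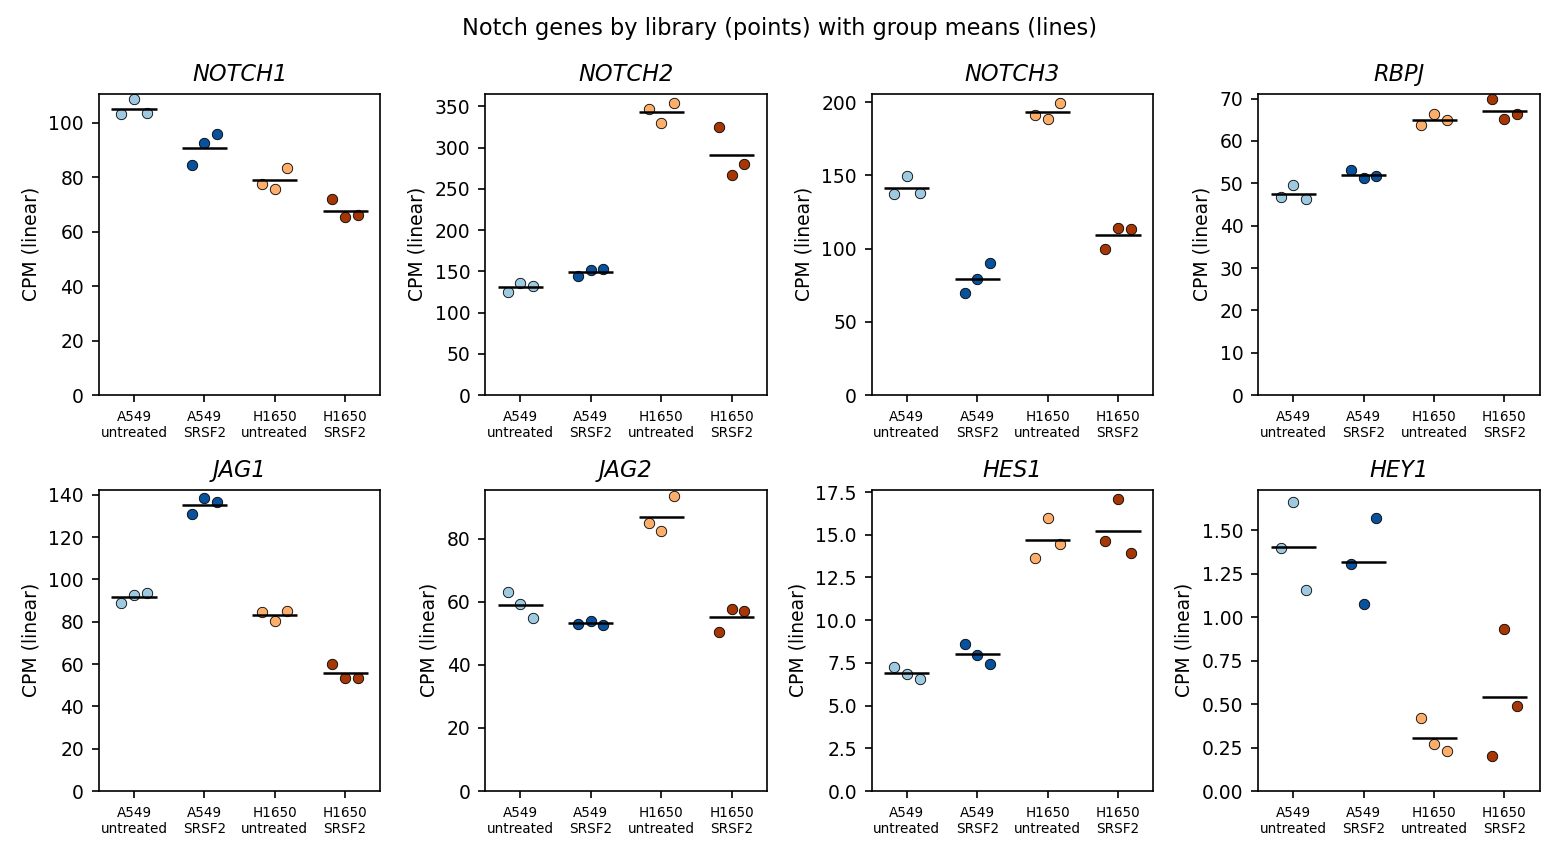
Normalised level of each Notch gene (CPM, linear axes from 0) in the 12 libraries, with points for libraries and lines for group means (n = 3). NOTCH3 lies lower with SRSF2 in both lines, JAG1 is higher in A549 SRSF2 and lower in H1650 SRSF2, and the HES1 and HEY1 libraries of H1650 overlap between groups.

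NOTCH1, the receptor first linked to T-cell leukaemia and a regulator of epithelial differentiation, fell in both lines by a small amount. NOTCH1 lies at chr9:136494433-136545786 (minus strand). Its levels were 103, 109 and 104 CPM in untreated A549 and 84.4, 92.4 and 95.8 CPM in A549 SRSF2. H1650 gave 77.4, 75.7 and 83.2 CPM untreated and 72.0, 65.3 and 66.0 CPM with SRSF2. The groups did not overlap in either line, and each group of A549 lay above both groups of H1650. NOTCH1 fell by 0.21 ± 0.05 (log2, SE) in A549 (adjusted p = 9.47e-04, edgeR) and by 0.22 ± 0.05 in H1650 (adjusted p = 3.09e-04), each a 1.16-fold drop. The responses of the lines differed by an interval of -0.15 to 0.14 (95%), with an adjusted p of 0.946.

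NOTCH2, a receptor with broad expression in epithelia, moved in opposite directions. NOTCH2 lies at chr1:119911553-120069626 (minus strand), and near-identical NOTCH2NL copies elsewhere on that chromosome were not analysed here, so some of its reads may be shared with them. Untreated A549 libraries gave 125, 136 and 132 CPM, and A549 SRSF2 libraries gave 145, 151 and 152 CPM. In H1650 the untreated libraries were at 347, 329 and 354 CPM and the SRSF2 libraries at 324, 267 and 281 CPM. A549 rose without overlap, while in H1650 the highest SRSF2 library, replicate 1, lay just under the lowest untreated one. NOTCH2 rose by 0.19 ± 0.05 (log2, SE) in A549 (adjusted p = 0.00382, edgeR) and fell by 0.24 ± 0.05 in H1650 (adjusted p = 4.5e-05). The response in H1650 minus that in A549 was -0.43 ± 0.07 (adjusted p = 3.65e-06).

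Per kilobase of exon, the level scale on which different genes can be compared, the summed receptors fell in both lines. The sum of NOTCH1, NOTCH2 and NOTCH3 was 33.0 ± 1.29 CPM per kb (SD, n = 3) in untreated A549 and 26.1 ± 1.88 in A549 SRSF2. In H1650 it was 48.6 ± 1.66 CPM per kb untreated and 35.4 ± 1.31 with SRSF2. NOTCH3 went from 45.6 ± 0.517% (SD) of this sum to 32.3 ± 1.89% in A549, and from 42.3 ± 0.376% to 32.8 ± 3.52% in H1650. NOTCH2 went from 23.7 ± 0.465% to 34.1 ± 1.57% in A549 and from 42.0 ± 0.444% to 48.7 ± 3.20% in H1650. NOTCH1 held 30.7% and 33.5% of the sum in the untreated and SRSF2 libraries of A549, and 15.6% and 18.4% in those of H1650. In each of these shares the SRSF2 libraries lay apart from the untreated ones.

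Which receptor had the highest level depended on the length used. In untreated H1650, NOTCH3 (20.6 CPM per kb) and NOTCH2 (20.4) overlapped when the union of exons was taken as the length, while the longest transcript put NOTCH2 at 30.2 and NOTCH3 at 22.3 CPM per kb. In untreated A549, NOTCH3 was highest with either length, at 15.1 or 16.3 CPM per kb. With SRSF2, the A549 levels of NOTCH1 (8.75 CPM per kb), NOTCH2 (8.89) and NOTCH3 (8.46) overlapped on the union of exons. NOTCH2 was the highest of these in A549 SRSF2, at 13.1 CPM per kb, when the longest transcript was used. In H1650 SRSF2, NOTCH2 was highest with either length, at 17.3 or 25.5 CPM per kb.

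**Figure D2:**
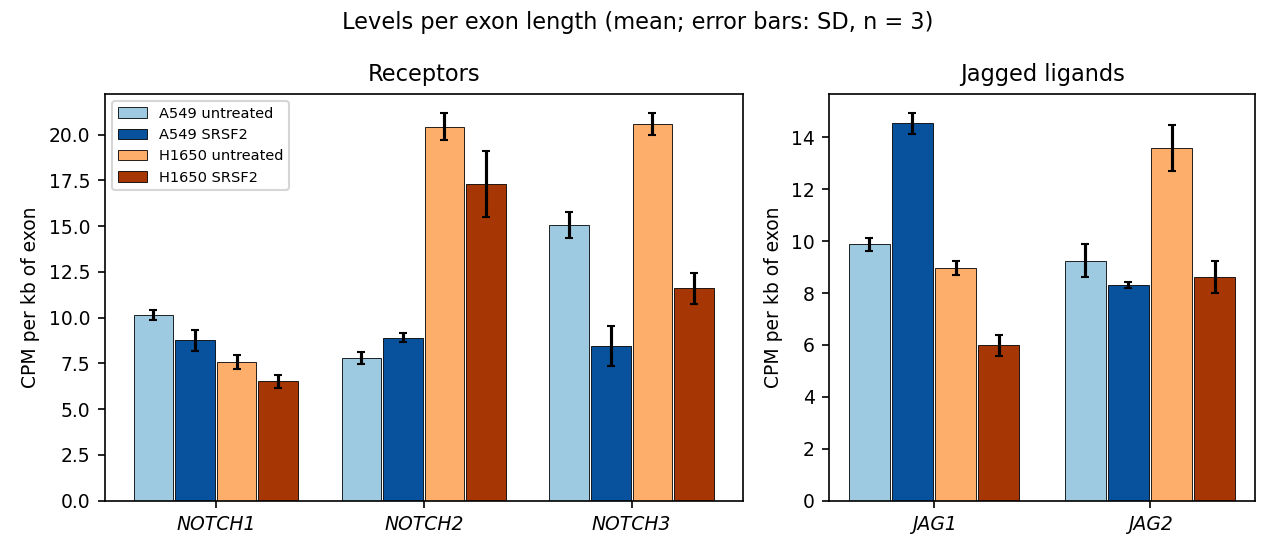
Mean level per kilobase of the union of exons (CPM per kb, linear axes from 0) of the receptors and Jagged ligands in the 4 groups, with error bars of 1 SD (n = 3). NOTCH3 drops from 15.1 to 8.46 in A549 and from 20.6 to 11.6 in H1650, and JAG1 goes up to 14.5 in A549 and down to 5.99 in H1650.

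JAG1, a membrane ligand for all of these receptors, had the largest difference of response between the lines among those of the 8 genes that were called for it. The gene lies at chr20:10637684-10673999 (minus strand), and an antisense gene overlaps its exons by 79 bases, with 313 counts in all libraries against 30763 for JAG1. JAG1 was at 89.1, 92.8 and 93.5 CPM in untreated A549 and at 131, 138 and 136 CPM in A549 SRSF2. Untreated H1650 libraries gave 84.8, 80.3 and 85.0 CPM and H1650 SRSF2 libraries 60.0, 53.6 and 53.5 CPM. The 4 groups ran from A549 SRSF2 through A549 untreated and H1650 untreated to H1650 SRSF2 with no overlap. JAG1 rose by 0.56 ± 0.04 (log2, SE), or 1.47-fold, in A549 (adjusted p = 5.51e-12, edgeR) and fell by 0.58 ± 0.05 in H1650 (adjusted p = 7.35e-13). The difference between these responses was -1.14 ± 0.07 (adjusted p = 3.41e-16).

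JAG2, the other Jagged ligand, was lower with SRSF2 in H1650 and, by a margin that single libraries decided, in A549. JAG2 lies at chr14:105140981-105168824 (minus strand), and another transcript of its strand overlaps 469 bases of its exons, with 221 counts against 21794 for JAG2. H1650 gave 85.0, 82.5 and 93.4 CPM untreated and 50.5, 57.8 and 57.1 CPM with SRSF2, a fall of 0.66 ± 0.05 (log2, SE) or 1.58-fold (adjusted p = 1.5e-12, edgeR). A549 gave 63.2, 59.2 and 55.0 CPM untreated and 52.9, 54.0 and 52.8 CPM with SRSF2. The A549 groups came close to each other without overlap, and both overlapped the H1650 SRSF2 libraries. JAG2 fell by 0.15 ± 0.06 (log2) in A549 with an adjusted p of 0.0386, and the call was lost without any single SRSF2 replicate or without untreated replicate 1 or 2. Without untreated replicate 1 the value was -0.10 (adjusted p = 0.248), the smallest of these, and without SRSF2 replicate 2 it was -0.16 (adjusted p = 0.0704). The response in H1650 minus that in A549 was -0.50 ± 0.08 (adjusted p = 2.12e-06).

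The summed Jagged ligands were higher with SRSF2 in A549 and lower in H1650. JAG1 and JAG2 together were at 19.1 ± 0.414 CPM per kb (SD, n = 3) in untreated A549 and 22.9 ± 0.474 in A549 SRSF2. In H1650 the sum was 22.6 ± 1.11 CPM per kb untreated and 14.6 ± 0.234 with SRSF2. JAG1 made up 51.7 ± 2.34% of the sum in untreated A549 and 63.6 ± 0.519% in A549 SRSF2, with no overlap. In H1650 its share was 39.8 ± 1.14% untreated and 41.0 ± 3.40% with SRSF2, and the libraries overlapped, since both ligands were lower there.

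RBPJ, the factor through which the receptors act on DNA, stayed within a narrow range of levels. RBPJ lies at chr4:26163455-26435131 (plus strand). A549 gave 46.9, 49.6 and 46.2 CPM untreated and 53.3, 51.3 and 51.7 CPM with SRSF2, and H1650 gave 63.7, 66.3 and 64.9 CPM untreated and 70.0, 65.1 and 66.4 CPM with SRSF2. The A549 groups did not overlap, the H1650 groups did, and both H1650 groups lay above both A549 groups. RBPJ rose by 0.13 ± 0.05 (log2, SE) in A549 (adjusted p = 0.036, edgeR). That call was lost with DESeq2 size factors (0.11, adjusted p = 0.0828), with DESeq2's own test (adjusted p = 0.0981) and without any of 5 single libraries: SRSF2 replicate 1, 2 or 3 or untreated replicate 1 or 3 (adjusted p from 0.06 to 0.144). In H1650 its change was 0.05, with a 95% interval of -0.05 to 0.14 (adjusted p = 0.376).

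HES1, the best known direct target of the pathway, did not pass the test in either line. HES1 lies at chr3:194136145-194138732 (plus strand). Its levels were 7.26, 6.86 and 6.54 CPM in untreated A549 and 8.58, 7.96 and 7.46 CPM in A549 SRSF2. H1650 gave 13.6, 16.0 and 14.5 CPM untreated and 14.6, 17.1 and 14.0 CPM with SRSF2. The A549 SRSF2 libraries all lay above the untreated ones, whereas the H1650 groups overlapped. The fitted change in A549 was 0.22 ± 0.11 (log2, SE; adjusted p = 0.124, edgeR), with a 95% interval that reached 0.43. In H1650 it was 0.05 ± 0.09, with an interval of -0.13 to 0.23 (adjusted p = 0.637).

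HEY1, a target of the related HEY family at chr8:79764010-79767863 (minus strand), was close to the limit of counting in H1650. HEY1 counts were 40, 47 and 34 in untreated A549 and 32, 31 and 40 in A549 SRSF2, or 1.16 to 1.66 and 1.08 to 1.57 CPM. In H1650 they were 13, 8 and 7 untreated and 5, 25 and 15 with SRSF2, or 0.232 to 0.418 and 0.199 to 0.933 CPM, where 3 counts correspond to 0.0935 to 0.126 CPM. The groups overlapped in both lines, and the H1650 SRSF2 libraries covered the whole untreated range. The fitted change was -0.10 in A549 (95% interval -0.69 to 0.50, adjusted p = 0.838, edgeR) and 0.82 in H1650 (95% interval -0.07 to 1.71, adjusted p = 0.104). The H1650 value rested on single libraries: without SRSF2 replicate 1 it was 1.18 (adjusted p = 0.0157), and without SRSF2 replicate 2 it was 0.21. Without SRSF2 replicate 1 the difference between the lines was 1.27 (adjusted p = 0.0342), against 0.91 (adjusted p = 0.157) with all libraries.

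**Figure D3:**
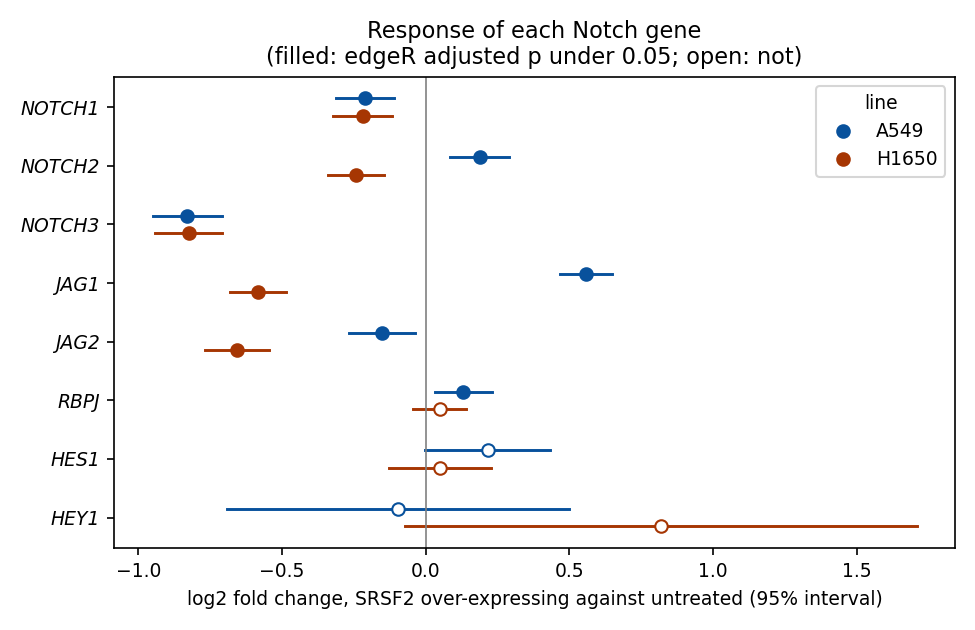
Log2 fold change of each Notch gene with SRSF2 in A549 (blue) and H1650 (brown), with 95% intervals. Filled points passed an adjusted p under 0.05 in edgeR. The intervals of NOTCH3 and NOTCH1 lie below 0 in both lines, those of NOTCH2 and JAG1 lie on opposite sides of 0, and those of HES1 and HEY1 include 0.

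Across the 8 genes, 3 were called higher in A549 SRSF2 (NOTCH2, JAG1 and RBPJ), 3 lower (NOTCH1, NOTCH3 and JAG2) and 2 not. Of all 15991 genes tested, 32.3% were called in A549, 16.4% higher and 15.9% lower. In H1650 SRSF2, 5 of the 8 were called lower (the 3 receptors and both Jagged ligands), 0 higher and 3 not. Without adjustment, edgeR's p was under 0.05 for 0 of the 8 in the upward direction, and DESeq2 also called 0 higher. The background in H1650 was 62.3% of genes called, 31.0% higher and 31.3% lower. Groups without overlap were counted for 22.7% (higher) and 23.0% (lower) of all genes in A549, and for 32.1% and 32.6% in H1650. NOTCH1, NOTCH3 and JAG2 were lower in both lines, as were 8.69% of all genes, and NOTCH2 and JAG1 were higher in A549 and lower in H1650, as were 3.13%. The difference of responses was called for 3 of the 8 (NOTCH2, JAG1 and JAG2), each lower in H1650 minus A549, against 47.5% of all genes (23.5% higher, 24.0% lower). The median size of change of the 8 genes was 0.20 in A549 and 0.41 in H1650 (log2, sign ignored), beside 0.16 and 0.36 over all genes tested. Given how the genes were chosen and how many genes moved, nothing particular to them is read from these counts.

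The untreated lines themselves differed at all 8 genes. Of the 8, 5 were called higher in H1650 and 3 lower, and no gene of the 8 had overlapping groups. This comparison was called for 82.4% of all genes tested, 40.1% higher and 42.3% lower, and groups without overlap were found for 40.9% (higher) and 43.1% (lower). NOTCH2 was 2.62-fold higher in H1650, a log2 difference of 1.39 (adjusted p = 1.44e-23, edgeR), and HES1 was 2.13-fold higher, a log2 difference of 1.09 (adjusted p = 1.9e-12). JAG2 (0.56), NOTCH3 (0.45) and RBPJ (0.45) were also higher in H1650 on the log2 scale. HEY1 was 4.52-fold lower in H1650 (log2 -2.18, adjusted p = 2.07e-06), NOTCH1 was lower by a log2 difference of -0.42, and JAG1 by -0.14 (adjusted p = 0.00572). The JAG1 call was lost without H1650 untreated replicate 2 (-0.10, adjusted p = 0.0589). The SRSF2 responses in each line share these untreated libraries with the comparison of the lines.

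DLL1 and DLL4 encode Delta-like ligands that activate the same receptors as the Jagged proteins. With DLL3 of the same family, they were among a wider list of 69 pathway genes sorted by role. Of these, 58 were in the table and all 58 were tested, and the other 11 were not analysed here. DLL4, best known from endothelial cells, was at 1.41, 1.44 and 1.03 CPM in untreated H1650 and at 7.53, 8.65 and 5.12 CPM in H1650 SRSF2. DLL1, a ligand of developing tissues, was at 1.16, 0.937 and 1.42 CPM in untreated H1650 and at 4.94, 4.48 and 3.69 CPM with SRSF2. Both stood well apart from their controls, in the line where JAG1 and JAG2 were lower. DLL4 rose by 2.45 ± 0.21 (log2, SE; adjusted p = 1.76e-12, edgeR) and DLL1 by 1.89 ± 0.21 (adjusted p = 1.34e-09) in H1650. DLL4 levels were lower in A549, at 0.279, 0.530 and 0.647 CPM untreated and 1.19, 1.32 and 0.824 CPM with SRSF2. There it rose by 1.19 ± 0.34 (adjusted p = 0.00598), a call that was lost without A549 untreated replicate 1 (0.92, adjusted p = 0.0507). The DLL4 response was larger in H1650 by 1.25 (adjusted p = 0.0134), and this was lost without A549 untreated replicate 3 (0.99, adjusted p = 0.107). DLL1 gave 0.139 to 0.353 CPM in all 6 A549 libraries and its change was not called. DLL3, a Delta-like protein of neuroendocrine tumours, was at 5.02 to 6.39 CPM in H1650 and 11.1 to 13.9 CPM in A549, and was not called in either line.

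Target genes other than HES1 and HEY1 were called higher in H1650 SRSF2 for 4 of the 5 in the table, beside 31.0% of all genes tested. HES4 was at 21.9, 23.3 and 26.7 CPM untreated and at 111, 121 and 101 CPM with SRSF2 in H1650. NRARP was at 1.83, 2.68 and 2.22 CPM untreated and 9.16, 9.74 and 6.91 CPM with SRSF2. HES7 was at 1.74, 1.27 and 0.960 CPM untreated and 3.31, 3.88 and 3.69 CPM with SRSF2. These levels did not overlap between groups, as was found in the higher direction for 32.1% of all genes, whereas those of HES1 overlapped. In the sequences shown earlier HES1 has 2 TGGGAA matches and HES4 1, and HES7 and NRARP have 0. HEYL and HES2, whose sequences are not shown, have 2 and 0 in the same window, where the HEYL matches lie in its annotated exon. Whether the matches have a part in the calls was not tested. In H1650 HES4 rose by 2.21 ± 0.07 (log2, SE; adjusted p = 1.8e-24, edgeR), NRARP by 1.93 ± 0.15 (adjusted p = 2.36e-13) and HES7 by 1.45 ± 0.21 (adjusted p = 2.88e-07). HEYL, a HEY family repressor, rose by 0.58 ± 0.17 (adjusted p = 0.00363), from a mean of 1.76 to 2.63 CPM. HES2, a further HES repressor, was at 1.81 and 1.54 CPM and was not called. Whether any of these 5 genes, HES2 included, is a Notch target in these lines was not tested.

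In A549, 1 of these 5 target genes was called, beside 32.3% of all genes tested. HES4 was at 7.85, 7.92 and 8.45 CPM untreated and at 9.73, 9.35 and 11.4 CPM with SRSF2, a rise of 0.33 ± 0.10 (log2, SE; adjusted p = 0.012, edgeR). The call was lost without A549 SRSF2 replicate 3 (0.24, adjusted p = 0.108). NRARP stood at means of 4.69 and 4.77 CPM, HES7 at 1.02 and 0.799 CPM and HEYL at 8.77 and 8.15 CPM in untreated and SRSF2 libraries. The responses of HES4, NRARP, HES7 and HEYL differed between the lines by 1.88, 1.91, 1.78 and 0.68 (log2, H1650 minus A549), with adjusted p-values of 1.18e-14, 3.13e-09, 8.64e-05 and 0.0061.

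**Figure D4:**
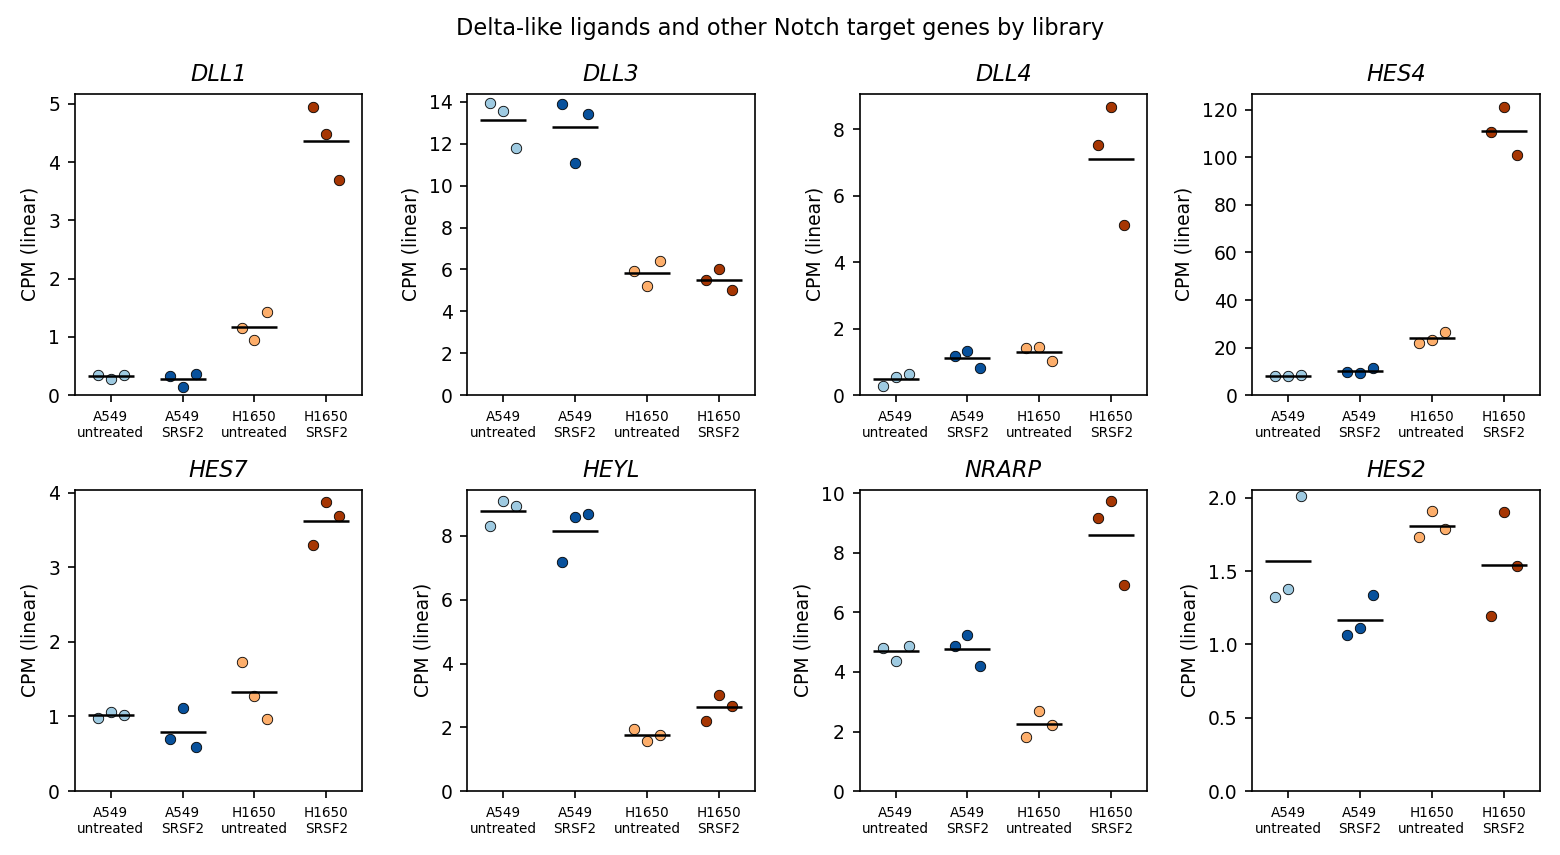
Level of the Delta-like ligands and of the target genes other than HES1 and HEY1 (CPM, linear axes from 0) in the 12 libraries, with points for libraries and lines for group means (n = 3). DLL1, DLL4, HES4, HES7 and NRARP stand apart in H1650 SRSF2, where HES4 reaches 121 CPM.

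Other measurements in the same libraries are set beside these H1650 results. HES4 lies at chr1:998962-1000172 (minus strand), head to head with ISG15, an interferon-induced gene at chr1:1001138-1014540 (plus strand). ISG15 rose in H1650 from a mean of 559 to 2160 CPM (1.95 ± 0.04, log2, SE; adjusted p = 3.86e-29, edgeR) and in A549 from 3.60 to 22.7 CPM (2.65 ± 0.08; adjusted p = 1.12e-22). The ISG15 response in H1650 minus that in A549 was -0.70 ± 0.10 (adjusted p = 3.69e-07, edgeR), and that of HES4 was 1.88. Both genes were called higher in both lines, although the HES4 call in A549 was lost without A549 SRSF2 replicate 3. Of 6 neuroendocrine markers, 2 were in the table (CHGA and SYP), and the other 4 were not analysed here. Their summed level was 7.41 to 9.35 CPM in untreated H1650 and 34.0 to 37.3 CPM in H1650 SRSF2, against 7.19 to 8.98 CPM over both A549 groups. CHGA, which encodes a granule protein, went from 4.45 to 30.2 CPM in H1650, and SYP from 3.89 to 4.99 CPM. The part of these changes in the levels of HES4, NRARP, HES7, DLL1 and DLL4 was not tested. The fibroblast markers in the table (COL1A1 and COL3A1, 2 of 6) had summed levels of 20.4 to 22.8 CPM in H1650 and 8.42 to 14.5 CPM in A549. They ordered the lines in opposite ways. In untreated H1650 against untreated A549, mean COL1A1 was 9.98 against 12.8 CPM and mean COL3A1 was 11.9 against 0.566 CPM. In H1650 SRSF2 their means were 6.63 and 14.3 CPM.

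Counts by role are read here against the shares of all genes tested, 32.3% called in A549 and 62.3% in H1650. Genes that cut the receptors changed in both directions. Of 8 genes for cleavage by furin, ADAM proteases and gamma-secretase, 1 rose, 2 fell and 5 were not called in A549, and 3 rose, 2 fell and 3 were not called in H1650. These are 37.5% and 62.5% called, close to the shares of all genes. APH1A, a structural subunit of gamma-secretase, rose by 0.50 ± 0.04 (log2, SE) in H1650 and was at means of 92.6 and 86.5 CPM in A549, where 5 alternatives called it lower (adjusted p from 0.0138 to 0.0456). Its response differed between the lines by 0.60 (adjusted p = 4.98e-11, edgeR). ADAM10, which makes the first cut after ligand binding, fell by 0.28 ± 0.04 in H1650 and was at means of 292 and 299 CPM in A549. NCSTN and FURIN fell by 0.15 each in A549, and FURIN fell by 0.09 in H1650. Without A549 SRSF2 replicate 1 these A549 values were -0.13 for NCSTN (adjusted p = 0.0503) and -0.09 for FURIN (adjusted p = 0.155), and without untreated replicate 2 both calls were also lost (-0.14 and -0.13, adjusted p = 0.0503 and 0.0552). The FURIN call in H1650 was lost with only the 6 libraries of that line fitted (-0.08, adjusted p = 0.0871) and without any of 7 single libraries: H1650 untreated replicate 1 or 3, H1650 SRSF2 replicate 1, 2 or 3, A549 untreated replicate 3 or A549 SRSF2 replicate 2 (adjusted p from 0.0509 to 0.206).

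Glycosyltransferases, which set how receptors respond to Jagged and Delta-like ligands, gave 1 rise and 2 falls in A549 and 2 rises and 3 falls in H1650 among 5 genes, beside 32.3% and 62.3% of all genes called. POFUT1, which adds O-fucose to the receptors, fell by 0.24 ± 0.04 (log2, SE) in A549 and by 0.53 ± 0.04 in H1650. The Fringe enzyme LFNG fell by 0.43 ± 0.10 in A549 and by 0.32 ± 0.07 in H1650. A related Fringe, MFNG, was at 3.84, 4.31 and 4.67 CPM untreated and 4.82, 6.33 and 5.89 CPM with SRSF2 in A549, a rise of 0.42 ± 0.13. In H1650 MFNG was at 5.98, 5.49 and 6.55 CPM untreated and 2.83, 2.95 and 3.03 CPM with SRSF2, a fall of 1.03 ± 0.14. The A549 call for MFNG was lost without SRSF2 replicate 2 (0.33, adjusted p = 0.112, edgeR) or untreated replicate 1 (0.34, adjusted p = 0.0832).

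Ligand and receptor endocytosis genes and their ubiquitin ligases gave 6 rises and 3 falls in A549, and 4 rises and 5 falls in H1650, among 14 genes. That is 64.3% called in each line, beside 32.3% of all genes in A549 and 62.3% in H1650. MIB1, the ubiquitin ligase that lets ligands be endocytosed and so activate receptors, was at 99.1, 103 and 105 CPM in untreated H1650 and 50.8, 48.2 and 52.3 CPM with SRSF2. That was a fall of 1.02 ± 0.05 (log2, SE), while the A549 means were 77.3 and 82.8 CPM, and the responses differed by -1.12 (adjusted p = 3.5e-16, edgeR). NEURL1B, a ligase with a similar role, fell by 1.41 ± 0.10 in H1650 and by 0.39 ± 0.11 in A549, where the call was lost without SRSF2 replicate 1 (-0.32, adjusted p = 0.0532). Both ligases were lower in H1650, as were JAG1 and JAG2, but NEURL1B was also called lower in A549, where JAG1 was higher. A link between ligases and ligands was not tested. DTX3L, a Deltex-family ligase, rose by 1.17 ± 0.05 in A549 and by 0.78 ± 0.04 in H1650. FBXW7, which targets the Notch intracellular domain for degradation, rose by 0.48 ± 0.06 in A549 and by 0.16 ± 0.05 in H1650, and ITCH rose by 0.33 ± 0.04 in A549. AAK1, an endocytic kinase, rose by 0.19 ± 0.06 in A549 and fell by 0.28 ± 0.05 in H1650. The rise of AAK1 was lost without A549 untreated replicate 1 or 3 or SRSF2 replicate 3 (0.16 to 0.17, adjusted p from 0.053 to 0.0742). The H1650 call of FBXW7 was lost without H1650 untreated replicate 3 (0.13, adjusted p = 0.0569) and with plain library totals (0.08, adjusted p = 0.18).

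MAML2 and KAT2B, nuclear partners of RBPJ, were lower in H1650 SRSF2, and other co-activators were higher there. Among 7 co-activators, 2 rose and 1 fell in A549, and 4 rose and 3 fell in H1650, beside 32.3% and 62.3% of all genes called. MAML3, a Mastermind protein chosen here after its values were seen, is counted among the H1650 rises on 7, 2 and 2 counts untreated and 9, 12 and 9 counts with SRSF2. MAML1, a further Mastermind protein also chosen after its values were seen, had higher levels in H1650. It was at 67.6, 65.4 and 70.1 CPM in untreated H1650 and at 91.2, 85.0 and 86.9 CPM with SRSF2. MAML2, a protein of the same family that bridges the Notch complex to the transcription machinery, was at 76.5, 74.9 and 78.2 CPM in untreated H1650 and 35.7, 35.1 and 35.9 CPM with SRSF2. MAML2 fell by 1.10 ± 0.05 (log2, SE) there, and A549 means were 12.6 and 13.0 CPM. The histone acetyltransferases KAT2B and KAT2A fell by 0.86 ± 0.05 and 0.56 ± 0.05 in H1650, and KAT2A fell by 0.17 ± 0.04 in A549. EP300 and CREBBP, acetyltransferases of the same complex, rose in both lines by 0.17 to 0.25. The H1650 call of EP300 was lost without H1650 untreated replicate 1 or 3 (0.15 and 0.16, adjusted p = 0.0645 and 0.0559) or SRSF2 replicate 1 (0.04, adjusted p = 0.496), and with plain library totals (0.09, adjusted p = 0.19). Both EP300 calls were lost with DESeq2 (adjusted p = 0.0632 in A549 and 0.136 in H1650).

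Co-repressors that silence target genes with RBPJ gave 5 rises and 2 falls in A549, and 4 rises and 4 falls in H1650, among 11 genes. That is 63.6% and 72.7% called, beside 32.3% and 62.3% of all genes. TLE2, a Groucho-family co-repressor, fell by 0.46 ± 0.12 (log2, SE) in A549 and by 0.93 ± 0.07 in H1650. CIR1 rose by 1.22 ± 0.06 in H1650 and by 0.18 ± 0.07 in A549. TLE1 rose by 0.37 ± 0.04 in A549 and 0.36 ± 0.04 in H1650, and TLE4 by 0.75 ± 0.05 and 0.12 ± 0.05. SPEN (0.14 and -0.41) and CTBP2 (0.20 and -0.16) rose in A549 and fell in H1650. The A549 call of SPEN was lost without untreated replicate 1, SRSF2 replicate 2 or SRSF2 replicate 3 (adjusted p from 0.0518 to 0.0628) and with DESeq2 (adjusted p = 0.0604). The A549 call of CIR1 was lost without any of 5 single A549 libraries, that is, all but SRSF2 replicate 1 (adjusted p from 0.0599 to 0.122), with DESeq2 size factors (adjusted p = 0.0616) and with DESeq2 (adjusted p = 0.0803). The H1650 call of TLE4 was lost without untreated replicate 1 or 2 or SRSF2 replicate 1 or 2, with DESeq2 and with plain library totals (0.04 to 0.13, adjusted p from 0.0502 to 0.474).

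Non-canonical ligands were few in the table. Of 4 non-canonical ligands in the table, 1 rose, 2 fell and 1 was not called in A549, and 1 rose and 3 were not called in H1650, beside 32.3% and 62.3% of all genes called. CNTN1, an adhesion protein, fell from a mean of 332 to 286 CPM in A549 and was at 0.153 CPM in untreated H1650, near the level of 3 counts. DNER, a neuronal ligand, rose from 79.0 to 87.4 CPM in H1650 and from 1.87 to 2.42 CPM in A549 (adjusted p = 0.0484, edgeR). The A549 call of DNER was lost in 14 alternatives (adjusted p from 0.05 to 0.228), and the H1650 call without untreated replicate 1 (0.11, adjusted p = 0.077) and with plain library totals (0.07, adjusted p = 0.248). EGFL7, a secreted Notch antagonist, fell by 0.18 ± 0.05 (log2, SE) in A549, a call that was lost without untreated replicate 1, SRSF2 replicate 1 or SRSF2 replicate 2 (adjusted p from 0.0525 to 0.0672). NOTCH4 was at 0.106 to 0.636 CPM in the 12 libraries and was not called, and its exons overlap those of GPSM3 on the same strand.

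**Figure D5:**
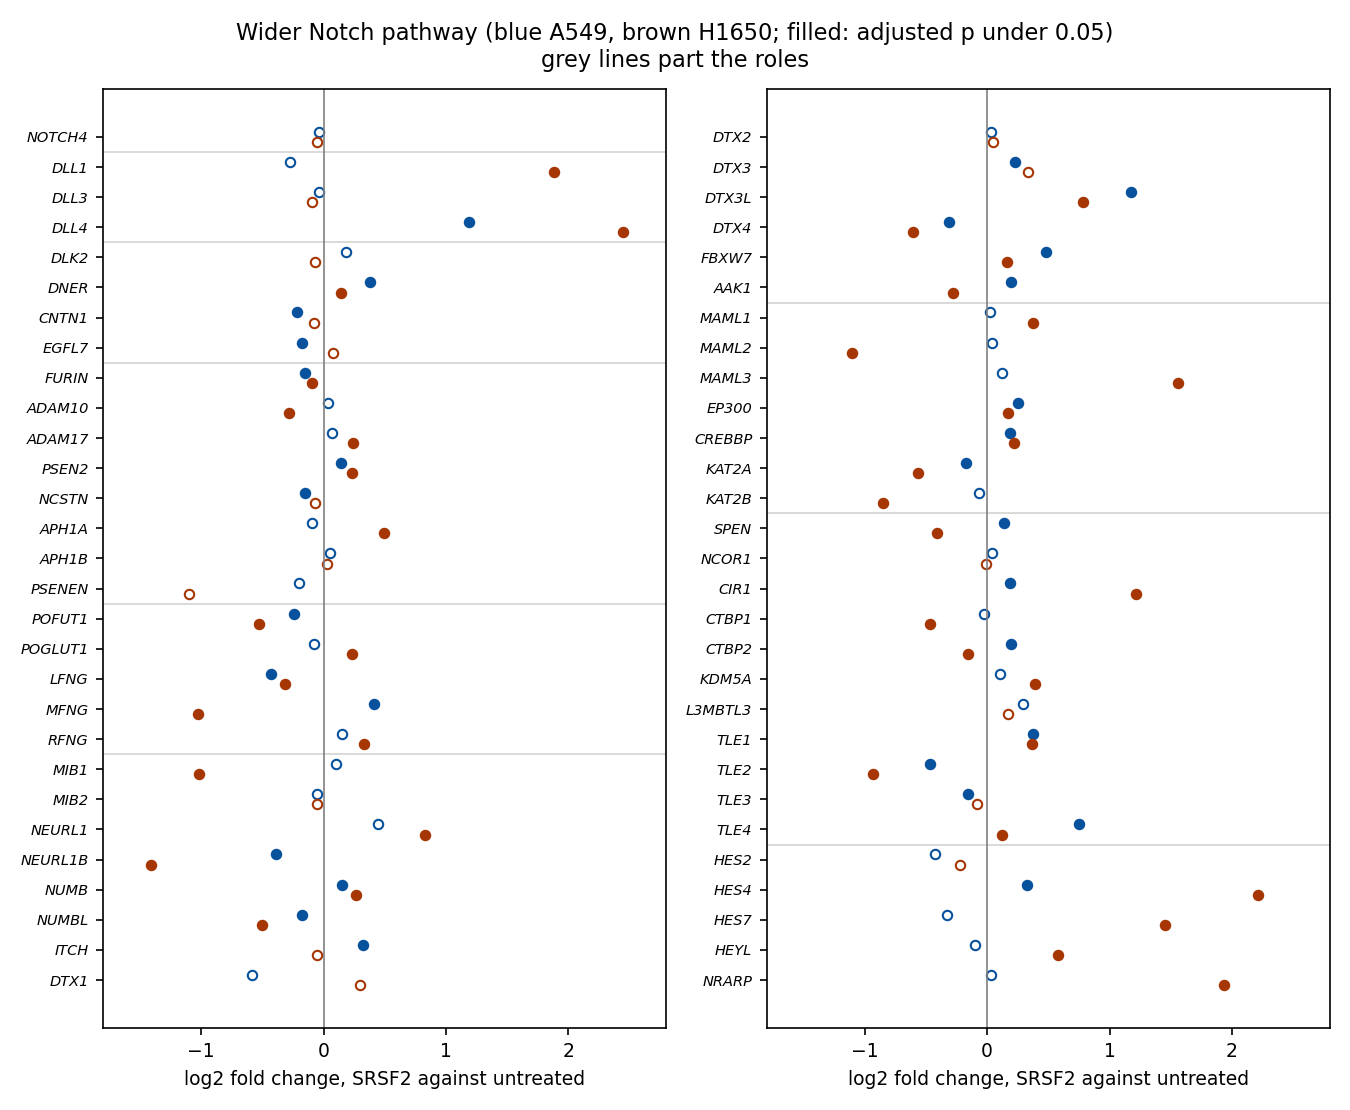
Log2 fold change with SRSF2 in A549 (blue) and H1650 (brown) for the 58 further pathway genes, ordered by role with grey lines between roles. Filled points passed an adjusted p under 0.05 in edgeR, and the highest values are those of DLL4 (2.45) and HES4 (2.21) in H1650.

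Over the 58 further genes, 18 were called higher, 12 lower and 28 not in A549, or 51.7% called against 32.3% of all genes tested. In H1650, 24 were higher, 17 lower and 17 not, or 70.7% called against 62.3%. Their median change was 0.04 (log2) in each line, beside 0.00 over all genes tested. The difference of the responses was called for 33, or 56.9%, of which 14 were higher and 19 lower in H1650 minus A549, beside 47.5% of all genes (23.5% higher, 24.0% lower).

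The genes whose levels followed each Notch gene most closely over the 12 libraries were found from the root mean square difference of log2 CPM, each gene centred on its own mean. Candidates were the 10793 tested genes with a mean of at least 5 CPM. NOTCH1 was closest to AHCY (0.05) and AFG3L1P (0.06), and NOTCH2 to MYH9 (0.05) and PXN (0.06). NOTCH3 was closest to CCDC159 (0.10) and MYORG (0.15), and JAG1 to INSIG1 (0.10) and SPTBN1 (0.12). JAG2 was closest to LRFN3 and ARPC1A (0.06 each), RBPJ to TRIP12 and TSPYL5 (0.05 each) and HES1 to ADK (0.07) and FRMD5 (0.08). HEY1 had no close match, with 0.41 to HEYL and 0.43 to SLC18B1. It had only 5 to 47 counts per library, and the part of counting noise in these distances was not tested. The measure is mostly set by the 4 group means, so many genes with like group means lie near each other.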

How the data were processed

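Polyadenylated RNA of A549 and H1650 was extracted with TRIzol and sequenced as Illumina libraries, per the labels' protocols. Raw counts per gene were deposited by the authors. The submitters' processing notes name the build GRCh38 and the tools featureCounts 2.0.0, STAR 2.7.7a and fastp 0.20.1. The annotation release, strandedness, handling of reads with several matches and rule for keeping genes are not given in the sources used here. The 12 libraries were grouped by line and treatment from the labels. Of 16599 gene IDs, 16139 had a symbol in a gene name table or GENCODE 29, which also gave positions and exon lengths.

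The test was edgeR's quasi-likelihood test (edgeR 4.0.16, R 4.3.3) on 15991 genes kept by filterByExpr, with TMM scaling. All 12 libraries entered 1 model of 4 group means, which left 8 residual degrees of freedom. Benjamini-Hochberg adjustment covered all genes tested, with calls at an adjusted p under 0.05. CPM uses TMM-scaled totals. SE is the log2 fold change divided by the root of the F statistic, an approximation, and 95% intervals use it. The 3 comparisons with SRSF2 (each line and their difference) were fitted with the comparison of untreated lines, and the script was checked on simulated counts. Alternatives were DESeq2 size factors, plain library totals, no filter, DESeq2 1.42.0, a replicate block, only the 6 libraries compared, leaving out each library, and the longest transcript as length. No pair of replicates agreed within sampling noise (chi-square per degree of freedom 2.29 to 8.11).

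The genes and lists were chosen with earlier results of these data known. Of the wider list, the genes with the smallest adjusted p in each role and line (up to 3), those called in opposite directions and every further receptor, canonical ligand and target gene in the table were named. A pair of genes of that list is not reported here and enters no count of it. For each Notch gene the 2 nearest patterns were named.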

Additional observations from a re-analysis of the deposited data

Results flagged for a closer look

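The SRSF2 response differed between the lines, by edgeR's test of the difference itself, for 28 of the genes named, and each value here is the log2 response in H1650 minus that in A549. A difference was called for 47.5% of all genes tested, so a call is common in these libraries. Many of the named genes were picked by their adjusted p in a line or by opposite calls, values that also form this difference. Their share called can therefore be raised by the choice. Of all 58 further genes, 14 were called higher, 19 lower and 25 not (56.9% called). Of the 8 Notch genes, 0 were called higher and 3 lower (37.5%). Among ligands, the value was -1.14 for JAG1, -0.50 for JAG2, 2.16 for DLL1, 1.25 for DLL4 and 0.25 for EGFL7. These Jagged and Delta-like values have opposite signs, while DLL3, a further Delta-like protein, was at -0.05 and was not called. The DLL4 call was lost without A549 untreated replicate 3 (0.99, adjusted p = 0.107), and the EGFL7 call with plain library totals (0.18, adjusted p = 0.0523). The receptor NOTCH2 was at -0.43.

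The 4 target genes called for the difference were higher in H1650 by this measure, with 1.88 for HES4, 1.78 for HES7, 0.68 for HEYL and 1.91 for NRARP. HES1 (-0.17), HEY1 (0.91) and HES2 (0.20) were not called.

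Genes that process receptors and ligands were at -0.32 (ADAM10), 0.60 (APH1A), -0.28 (POFUT1) and -1.44 (MFNG). Of the 8 cleavage genes, 2 were called higher, 1 lower and 5 not (37.5% called). Of the 5 glycosyltransferases, 1 was called higher, 2 lower and 2 not (60% called). Trafficking and ubiquitin genes were at -1.12 (MIB1), -1.02 (NEURL1B), -0.38 (ITCH), -0.39 (DTX3L), -0.32 (FBXW7) and -0.47 (AAK1). These 6 genes were picked by their adjusted p in a line or by opposite calls, so the sign they share is not read as a result. Of all 14 genes of that role, 0 were called higher, 8 lower and 6 not for the difference. That is 57.1% called, beside 47.5% of all genes tested (23.5% higher, 24.0% lower).

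The co-activators called lower for the difference were at -1.15 (MAML2), -0.39 (KAT2A) and -0.79 (KAT2B). Of all 7 co-activators, 2 were called higher, 3 lower and 2 not, or 71.4% called. The share of all genes tested was 47.5% (23.5% higher, 24.0% lower). Named co-repressors were at -0.55 (SPEN), 1.04 (CIR1), -0.36 (CTBP2), -0.47 (TLE2) and -0.63 (TLE4). Of all 11 co-repressors, 2 were called higher, 5 lower and 4 not (63.6% called). The TLE2 call was lost without A549 SRSF2 replicate 3 (-0.36, adjusted p = 0.0617).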

How the results depend on the processing

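No count of called genes moved by more than 1.5 times under the alternatives run, over all genes, the 8 Notch genes or the 58 further genes. With each library left out in turn, the calls among the 8 ran from 4 to 6 in A549, 5 to 6 in H1650 and 3 to 4 for the difference. Of 140 fold changes named, 30 changed their call and 20 their sign in at least 1 alternative, over 22 genes for the calls. The cause was not tested. The sign changed for values that were not called. With DESeq2 size factors the difference was 0.0064 for NOTCH1, 0.0070 for TLE1 and 0.0021 for NOTCH4, and with DESeq2's test 0.0067 for NOTCH1 and 0.0070 for TLE1. With plain library totals H1650 gave -0.032 for RBPJ, -0.030 for HES1 and -0.0046 for EGFL7, and the difference was -0.069 for NOTCH3, -0.021 for FURIN and -0.039 for CREBBP. With no filter the difference was -0.0051 for NOTCH3. Leaving out single libraries gave these ranges in A549: DLL1 -0.51 to 0.069, DLL3 -0.11 to 0.059, HEY1 -0.24 to 0.041, MAML2 -0.019 to 0.11, NOTCH4 -0.43 to 0.25 and NRARP -0.051 to 0.11. In H1650 they were -1.44 to 0.45 for CNTN1, -0.042 to 0.11 for HES1 and -0.22 to 0.30 for NOTCH4. For the difference they were -1.23 to 0.66 for CNTN1, -0.040 to 0.077 for CREBBP, -0.15 to 0.015 for DLL3, -0.0077 to 0.11 for FURIN and -0.019 to 0.34 for HES2. They were -0.060 to 0.030 for NOTCH1, -0.084 to 0.0995 for NOTCH3, -0.30 to 0.38 for NOTCH4 and -0.055 to 0.032 for TLE1. Replicate numbers did not mark pairs: correlations of same-numbered libraries ran from -0.02 to 0.05. With the replicate block, 5146 genes were called in A549 (6 of the 8), 9919 in H1650 (5) and 7589 for the difference (3). Depth limits HEY1, NOTCH4, CNTN1, DLL1, DLL4, MAML3 and PSENEN most, since each had fewer than 10 counts in at least 1 library.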
